A study of Drosophila simulans and Drosophila sechellia and Drosophila simulans x Drosophila sechellia with 72 samples.

Results

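The genes described here are the translation factors and aminoacyl-tRNA synthetases of 2 fruit fly species and their hybrids: every gene of the expression table whose symbol begins with eIF or eEF, or ends in RS or RS-m. The rule took 34 of 7836 genes, namely 14 initiation factors, 1 elongation factor (eEF1delta), 11 cytosolic synthetases and 8 mitochondrial synthetases, which carry the suffix -m. These classes follow the symbols alone. eIF-5A, which helps the ribosome through difficult peptide bonds, is therefore counted with the initiation factors. RNA was sequenced from 72 libraries, 24 each of Drosophila sechellia x D. simulans hybrids, Drosophila sechellia and Drosophila simulans, with 12 adult and 12 larval libraries for each. No strain name, direction of the cross, sex of the parents or adult age is given in the labels used here. Each library came from 1 homogenate of 10 whole adult females or 10 whole larvae of the third instar, also labelled female, reared at 20 °C under 16 h of light and 8 h of dark. Octanoic acid, a toxic fatty acid of the noni fruit on which D. sechellia lives, was in the food or was not, in the current generation and in the previous one. That gave 4 media histories, written as previous then current medium with O for octanoic acid and S for standard medium (OO, SO, OS, SS), with 3 biological replicates of each history, genotype and stage. The replicates are numbered as biological replicates in the labels, which do not say whether they came from separate vials or days, so p-values measure the spread between these homogenates.

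Protein synthesis begins when eIF2 brings the initiator tRNA to the small ribosomal subunit. The cap-binding protein eIF4E and the helicase eIF4A prepare the mRNA, eIF5 triggers GTP hydrolysis on eIF2, eIF5B joins the large subunit, and eIF2B recharges eIF2 with GTP. Aminoacyl-tRNA synthetases attach each amino acid to its tRNA, with separate enzymes for the cytosol and for the mitochondrion, where a small set of respiratory chain proteins is made. Growing larvae and egg-producing females both make large amounts of protein.

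The table holds FPKM, a level scaled to transcript length and library size, so levels can be set side by side between genes. Column sums differed by genotype. Summed deposited FPKM ran from 958731 to 1169420 in adult hybrids, from 1090160 to 1454240 in D. sechellia adults and from 483241 to 515024 in D. simulans adults. Each library was therefore rescaled by its median ratio over 3819 genes above 0 in every library, and FPKM in the following means rescaled FPKM. Differences are log2 differences of (FPKM + 1), with their standard error (SE), and a gene was called at a Benjamini-Hochberg adjusted p under 0.05 over all genes tested (limma). In hybrids the level is the sum of the 2 allele columns of a library, each rescaled first. Of 7836 genes, 1900 to 2211 were at 0 in an adult hybrid library, against 1053 to 1319 in a D. sechellia adult library and 1337 to 1529 in a D. simulans adult library. The libraries least correlated with the median of their genotype and stage were larval hybrids SO replicate 1 (r = 0.902), SS replicate 2 (0.913) and SO replicate 3 (0.914).

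The most abundant gene of the set was eIF-5A, which binds the ribosome and helps it through difficult peptide bonds. Its levels in adults ran from 3001 to 3727 FPKM (median 3305) in hybrids, 2009.6 to 2499 FPKM (median 2308) in D. sechellia and 2316 to 2773 FPKM (median 2558) in D. simulans. In larvae they ran from 4240.5 to 8705 FPKM (median 5060.5) in hybrids, 2723 to 3574 FPKM (median 3091) in D. sechellia and 2728 to 3856 FPKM (median 3065) in D. simulans. The hybrid ranges lay above those of both species at each stage. In larval hybrids the highest values were the 4 libraries numbered replicate 1, one in each media history, at 7385 FPKM in OO, 8705 FPKM in SO, 6614 FPKM in OS and 7918 FPKM in SS, while the other 8 ran from 4240.5 to 5189.8 FPKM.

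Next in abundance were eIF-4a, the RNA helicase of the cap-binding complex, eEF1delta, a subunit of the exchange factor that reloads the elongation factor eEF1A, and eIF-1A, which helps the small subunit scan for the start codon. Over all 72 libraries eIF-4a averaged 1297 FPKM, eEF1delta 477 FPKM and eIF-1A 454 FPKM. The alpha subunit of eIF2 (eIF-2alpha) averaged 199.9 FPKM. The cytosolic synthetases ran from AspRS (163 FPKM), AsnRS (109.8 FPKM), SerRS (98.9 FPKM) and AlaRS (90.4 FPKM) down to ValRS at 18.3 FPKM. The mitochondrial synthetases were lower, from PheRS-m (55.7 FPKM) and ProRS-m (19.9 FPKM) to AsnRS-m (5.44 FPKM). Among the mitochondrial enzymes only PheRS-m and ProRS-m averaged above ValRS, the lowest of the cytosolic ones.

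Several members had libraries at 0: eIF4E-4 in 42 libraries, eIF2D in 25, eIF4E-7 in 13, eIF2B-gamma in 8 and TyrRS-m in 8. The initiation factor eIF2D, which can place tRNA on the ribosome without eIF2, was listed at 0 in all 12 D. simulans adult libraries, and the cap-binding paralog eIF4E-4 was listed at 0 in all 36 adult libraries.

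**Figure D1:**
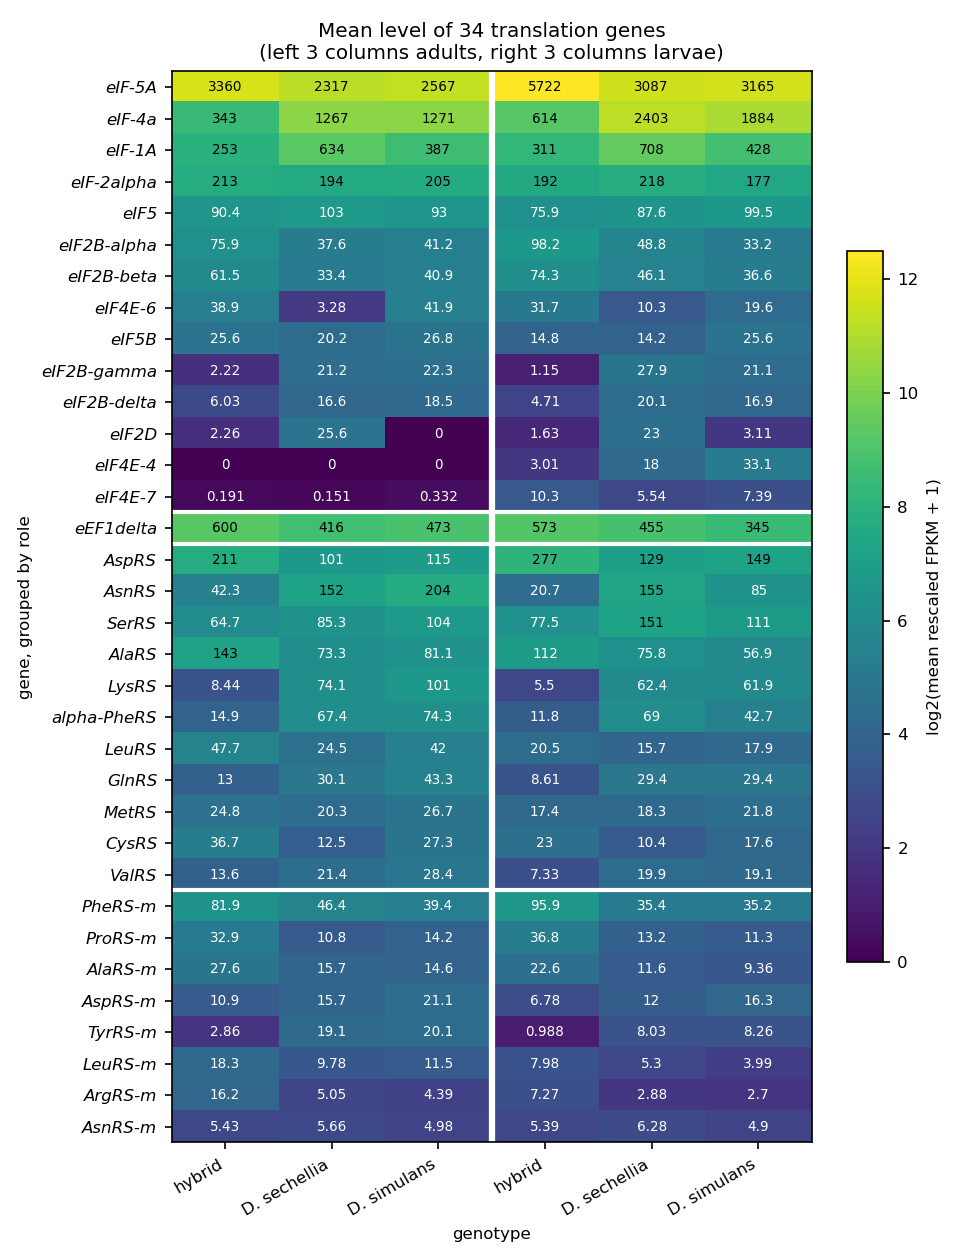
Mean rescaled FPKM of the 34 genes in hybrids, D. sechellia and D. simulans, adults in the left 3 columns and larvae in the right 3. Colour is log2(mean + 1), printed numbers are means of 12 libraries, and white lines separate initiation factors, the elongation factor, cytosolic and mitochondrial synthetases; eIF-5A reaches 5722 FPKM in larval hybrids, and eIF4E-4 is 0 in all 3 adult columns.

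Adults were set against larvae over the 48 libraries of the parental species. Synthetase transcripts were mostly higher in adults: 9 of 11 cytosolic enzymes and 6 of 8 mitochondrial enzymes rose, and 2 cytosolic enzymes fell, SerRS and AspRS. Of 14 initiation factors 1 was higher (eIF5B) and 6 lower, a split that turned to 7 higher and 3 lower on FPKM as deposited. In all, 17 of 34 members were higher and 8 lower in adults, where 86.1% of all 7338 genes tested were called (36.9% higher and 49.2% lower). The median difference was 0.33 for cytosolic synthetases, 0.43 for mitochondrial synthetases and -0.15 for initiation factors, against -0.16 over all genes tested. On FPKM as deposited the all-gene median moved to 0.09 and the split became 25 higher and 4 lower, against 3342 higher and 2945 lower over all genes. There the cytosolic synthetases stood at 9 higher and 1 lower and the mitochondrial ones at 8 higher and 0 lower. Relative to the all-gene median the synthetases kept their place (0.48 rescaled and 0.49 deposited for cytosolic, 0.59 and 0.60 for mitochondrial).

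The largest rises were in TyrRS-m, LeuRS-m and LeuRS, which charge mitochondrial tyrosine, mitochondrial leucine and cytosolic leucine tRNAs. TyrRS-m ran from 13.1 to 23.9 FPKM (median 19.6) in D. sechellia adults and 18.8 to 22.2 FPKM (median 19.8) in D. simulans adults, against 6.19 to 11.1 FPKM (median 7.66) in D. sechellia larvae and 5.75 to 13.9 FPKM (median 7.64) in D. simulans larvae. Adults lay above larvae of the same species in every library, and the difference was 1.18 ± 0.07 (adjusted p = 7.31e-18). LeuRS-m ran from 7.49 to 13.4 FPKM (median 9.68) in D. sechellia adults and 10.5 to 13.2 FPKM (median 11.4) in D. simulans adults, against 4.11 to 6.61 FPKM (median 5.27) and 2.67 to 4.94 FPKM (median 3.90) in larvae of D. sechellia and D. simulans, a difference of 1.05 ± 0.06 (adjusted p = 3.37e-19). LeuRS ran from 19.2 to 28.7 FPKM (median 23.9) in D. sechellia adults and 37.03 to 47.3 FPKM (median 41.9) in D. simulans adults, against 13.2 to 17.6 FPKM (median 15.6) in D. sechellia larvae and 15.9 to 20.5 FPKM (median 17.8) in D. simulans larvae (0.90 ± 0.04 (adjusted p = 1.27e-20)). No larval range of these 3 genes overlapped the adult range of the same species. AsnRS rose by 0.64 ± 0.07 (adjusted p = 3.21e-10) and ArgRS-m by 0.58 ± 0.07 (adjusted p = 3.66e-10).

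The falls were led by 3 initiation factors. The cap-binding paralog eIF4E-4 was listed at 0 in all adult libraries, while larvae ran from 10.1 to 30.5 FPKM (median 19.8) in D. sechellia and 13.7 to 66.3 FPKM (median 27.4) in D. simulans. Its relative eIF4E-7 ran from 0 to 0.334 FPKM (median 0.141) in D. sechellia adults and 0.101 to 0.617 FPKM (median 0.366) in D. simulans adults, against 2.87 to 8.85 FPKM (median 4.98) in D. sechellia larvae and 3.04 to 14.4 FPKM (median 6.92) in D. simulans larvae (-2.50 ± 0.12 (adjusted p = 7.94e-21)). For both cap-binding paralogs no adult library reached the lowest larval library. The helicase gene eIF-4a ran from 1044 to 1436 FPKM (median 1274) in D. sechellia adults and 1169 to 1369 FPKM (median 1283) in D. simulans adults, against 2089 to 2896 FPKM (median 2365) in D. sechellia larvae and 1691 to 2438 FPKM (median 1835) in D. simulans larvae (-0.74 ± 0.05 (adjusted p = 7.67e-17)). SerRS (-0.43 ± 0.07 (adjusted p = 3.97e-07)) and AspRS (-0.36 ± 0.04 (adjusted p = 1.67e-10)) were the synthetases that fell. The call on AspRS is lost on FPKM as deposited, at -0.09 (adjusted p = 0.147).

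Marker genes of other tissues moved with stage. The summed level of 6 of 15 listed ovary and egg genes that the table holds ran from 5376 to 17749 FPKM in D. sechellia adults and 11070 to 16296 FPKM in D. simulans adults, against 0.298 to 1.84 FPKM in D. sechellia larvae and 0.888 to 73.1 FPKM in D. simulans larvae. The sum of 7 of 17 listed testis genes ran from 4.31 to 50.8 FPKM in D. sechellia adults and 28.7 to 44.4 FPKM in D. simulans adults, against 67.8 to 207 FPKM in D. sechellia larvae and 80.0 to 469 FPKM in D. simulans larvae, although the larvae are described as female. The adult sums were almost wholly twe, a meiotic phosphatase gene of both germlines, which was higher in adults (1.87 ± 0.38 (adjusted p = 3.17e-05)), while the other 6 were lower in adults and reached at most 0.582 FPKM there (Prosalpha3T). Of these 6, dj, a sperm-tail gene, was at 0 in 9 of 12 D. sechellia and 12 of 12 D. simulans adult libraries and ran from 23.97 to 93.6 FPKM (median 55.3) in D. sechellia larvae and 35.8 to 218 FPKM (median 67.5) in D. simulans larvae. The part of ovary and testis transcripts in the differences of eIF4E-4, eIF4E-7 and the synthetases was not tested. In RNA of whole animals, fewer cells of a type and less RNA per cell cannot be told apart.

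Among the 24 hybrid libraries, 14 of 34 members were higher in adults than in larvae and 7 lower, where 70.6% of 7216 genes were called (30.5% higher and 40.1% lower). Cytosolic synthetases stood at 7 higher and 2 lower of 11 (11 and 0 as deposited), and mitochondrial ones at 4 higher and 0 lower of 8 (7 and 0). LeuRS (1.20 ± 0.13), LeuRS-m (1.15 ± 0.18), ArgRS-m (1.13 ± 0.24), TyrRS-m (1.06 ± 0.34) and AsnRS (1.01 ± 0.12) had the largest rises, with adjusted p of 4.88e-08, 1.15e-05, 0.000318, 0.00853 and 4.67e-07 in that order. The call on TyrRS-m is lost with hybrids as the sum of deposited allele columns, an alternative chosen after seeing the data (0.91, adjusted p = 0.0574). AsnRS ran from 32.2 to 51.9 FPKM (median 41.9) in adult hybrids and 13.8 to 28.6 FPKM (median 19.3) in larval hybrids, with no overlap. Lower in adult hybrids were eIF4E-7 (-3.01 ± 0.31 (adjusted p = 2.79e-08)), eIF-4a (-0.83 ± 0.09 (adjusted p = 4.78e-08)) and eIF-5A (-0.73 ± 0.13 (adjusted p = 5.33e-05)), and eIF4E-4 was again listed at 0 in adults, with 0 to 14.9 FPKM (median 0.652) in larval hybrids. On FPKM as deposited 30 members were higher and 2 lower in adults, against 3572 higher and 1830 lower over all genes. The all-gene median stood there at 0.67 in place of -0.18, and eIF-4a (0.39), eIF-5A (0.58) and AspRS (0.90, against -0.38 rescaled) turned to higher in adults.

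**Figure D2:**
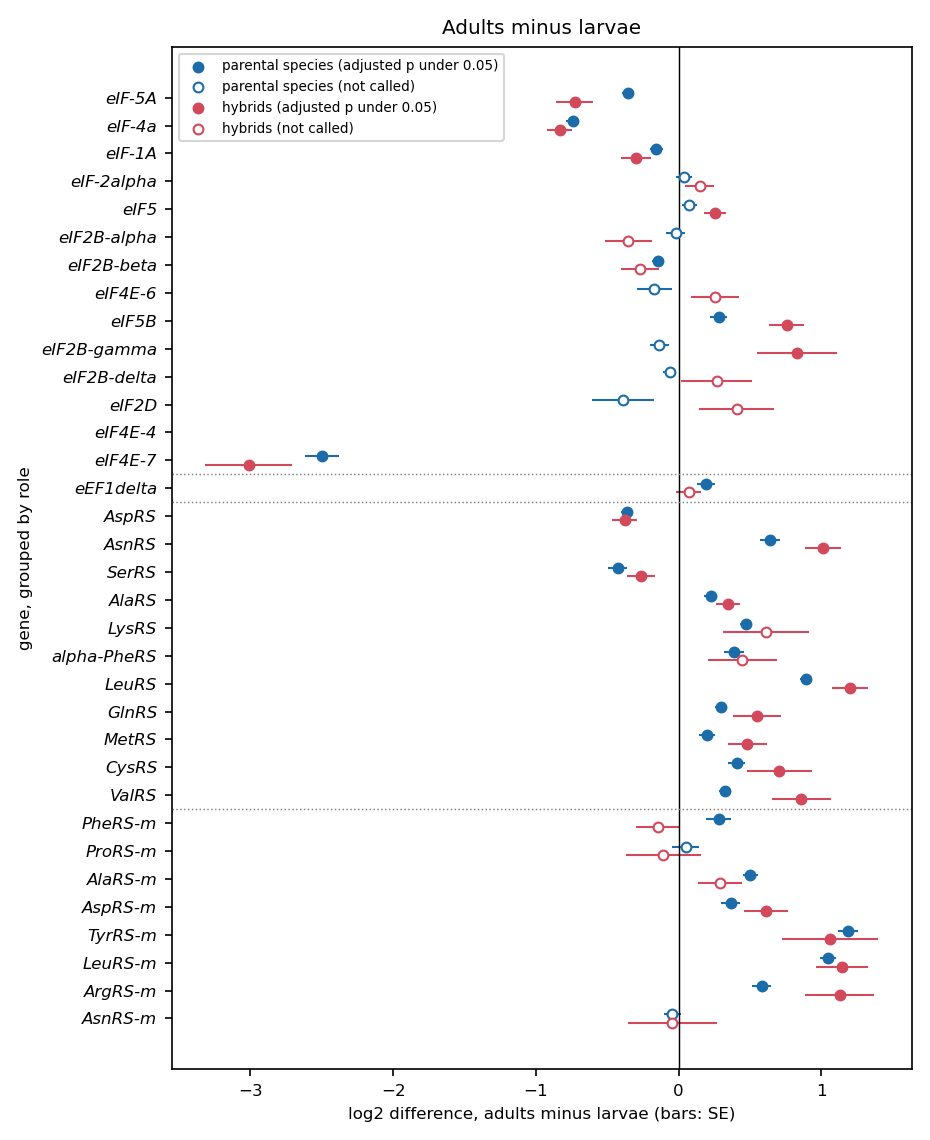
Log2 difference of adults minus larvae for each gene in the parental species (blue) and the hybrids (red), with bars of 1 SE and filled points at adjusted p under 0.05; eIF4E-4, at 0 in all adults, is not drawn. Points of the synthetases lie mostly right of 0 on the rescaled FPKM used here, with SerRS and AspRS to the left, and eIF4E-7 lies farthest left.

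The change with stage differed between D. sechellia and D. simulans for 23 of 34 members, 4 with a more positive and 19 with a more negative difference in D. sechellia, where 56.7% of all genes were called (31.1% more positive and 25.6% more negative). The deposited values gave a split of 3 and 17, against 2280 more positive and 1601 more negative over all genes. None of the 11 cytosolic synthetases was more positive in D. sechellia and 9 were more negative (8 on FPKM as deposited). eIF4E-6 had the largest difference of this kind, at -2.50 ± 0.25 (adjusted p = 1.89e-10). It ran from 1.37 to 5.12 FPKM (median 3.47) in D. sechellia adults and 30.3 to 54.6 FPKM (median 40.3) in D. simulans adults, against 5.76 to 15.02 FPKM (median 11.2) in D. sechellia larvae and 13.1 to 25.6 FPKM (median 17.98) in D. simulans larvae. In D. sechellia the adult libraries lay below all larval ones, and in D. simulans above them. AsnRS followed with -1.30 ± 0.14 (adjusted p = 2.35e-09): it ran from 126 to 192 FPKM (median 149) in adults and 108 to 216 FPKM (median 150.5) in larvae of D. sechellia, with overlap, and from 178 to 237 FPKM (median 206) in adults and 60.7 to 161 FPKM (median 79.3) in larvae of D. simulans, with none. alpha-PheRS (-0.85), SerRS (-0.75), eIF2B-alpha (-0.69) and eIF2B-beta (-0.61) were also more negative in D. sechellia, and eIF5 (0.32) and eIF5B (0.41) more positive. The more positive members also include eIF2D, at 0 in all 12 D. simulans adult libraries, and eIF4E-4, at 0 in all adults of both species. The call on eIF4E-4 is lost on FPKM as deposited (0.14, adjusted p = 0.713). That on eIF2D is lost without D. simulans larval SO replicate 1 (adjusted p = 0.0597) or 3 (0.0581).

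In adults, D. sechellia had lower levels than D. simulans for most cytosolic synthetases, relative to the typical gene. Of 32 members tested, 3 were higher and 19 lower in D. sechellia, where 73.0% of 6193 genes were called (42.1% higher and 30.9% lower), and 10 of 11 cytosolic synthetases were lower on this scale (1 lower and 7 higher on FPKM as deposited). On FPKM as deposited, where the all-gene median stands at 0.74 and not at 0.12, 27 members were higher and 2 lower. Over all genes 4844 were higher and 375 lower there. Set against the all-gene median, the cytosolic synthetases' median was -0.52 on the rescaled and -0.44 on the deposited values, while that of the mitochondrial synthetases was -0.12 and -0.05.

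eIF4E-6, a cap-binding paralog, was the most different of the lower members, with 1.37 to 5.12 FPKM (median 3.47) in D. sechellia adults, against 30.3 to 54.6 FPKM (median 40.3) in D. simulans adults (-3.38 ± 0.17 (adjusted p = 1.03e-12)). The 2 ranges do not overlap. CysRS, the cysteine enzyme, ran from 7.35 to 16.9 FPKM (median 12.4) in D. sechellia adults, against 24.9 to 29.9 FPKM (median 27.1) in D. simulans adults (-1.10 ± 0.10 (adjusted p = 6.83e-09)). LeuRS ran from 19.2 to 28.7 FPKM (median 23.9) in D. sechellia adults, against 37.03 to 47.3 FPKM (median 41.9) in D. simulans adults (-0.76 ± 0.06 (adjusted p = 1.19e-09)). Neither enzyme overlapped between species. GlnRS differed by -0.51 ± 0.06 (adjusted p = 1.23e-07) and LysRS by -0.45 ± 0.06 (adjusted p = 3.88e-06). In the deposited values GlnRS (0.21) and LysRS (0.27) turned to higher in D. sechellia and the call on LeuRS was lost (-0.05, adjusted p = 0.652).

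The higher members in D. sechellia adults were eIF2D, eIF-1A and eIF5. eIF2D ran from 20.5 to 30.4 FPKM (median 25.7) in D. sechellia adults and was listed at 0 in every D. simulans adult library. eIF-1A ran from 534 to 732 FPKM (median 645) in D. sechellia adults, against 353 to 427 FPKM (median 389.6) in D. simulans adults, without overlap (0.71 ± 0.06 (adjusted p = 1.03e-08)). eIF5, the GTPase activator of eIF2, ran from 88.1 to 120.3 FPKM (median 101) in D. sechellia adults, against 88.9 to 97.01 FPKM (median 92.6) in D. simulans adults, with overlap (0.13 ± 0.05 (adjusted p = 0.03)). Its call is lost without any 1 of 3 D. sechellia libraries, with adjusted p of 0.0501 (SS replicate 1), 0.0537 (OS replicate 1) and 0.0615 (OO replicate 3). Ovary and egg markers summed to a median of 14987 FPKM in D. sechellia adults and 12707 FPKM in D. simulans adults. In D. sechellia adults it was mostly Yp1, Vm26Aa and Vm26Ab. Gene by gene 1 of 6 was higher in D. sechellia adults, the yolk protein gene Yp1 (0.54 ± 0.10 (adjusted p = 8.23e-05)), and 3 were lower, the eggshell gene Cp36 (-3.81 ± 0.76 (adjusted p = 0.000186)) and the germline genes bam (-1.30 ± 0.19 (adjusted p = 6.76e-06)) and otu (-0.65 ± 0.15 (adjusted p = 0.000705)). The part of these markers in the differences between the species was not tested.

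In larvae more members were higher than lower in D. sechellia. Of 34 members, 16 were higher and 8 lower in D. sechellia, where 66.3% of 7024 genes were called (35.3% higher and 31.0% lower). On FPKM as deposited, where the all-gene median stands at 0.58 and not at 0.03, 28 were higher and 0 lower. The counts as deposited thus moved together with the typical gene and are not particular to the members. Cytosolic synthetases split evenly, 4 higher and 4 lower of 11 (10 and 0 as deposited), and 8 of 14 initiation factors were higher and 3 lower (10 and 0 as deposited).

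eIF2D was again higher in D. sechellia larvae, with 18.03 to 29.5 FPKM (median 24.5), against 0 to 13.4 FPKM (median 0) in D. simulans larvae, where 9 of 12 libraries were at 0 (3.64 ± 0.42 (adjusted p = 5.21e-07)). The D. simulans libraries above 0 were SO replicates 1 and 3 and SS replicate 3. AsnRS ran from 108 to 216 FPKM (median 150.5) in D. sechellia larvae, against 60.7 to 161 FPKM (median 79.3) in D. simulans larvae (0.87 ± 0.13 (adjusted p = 9.06e-06)), with overlap through 1 D. simulans library. eIF-1A ran from 608 to 832 FPKM (median 703) in D. sechellia larvae, against 395 to 466 FPKM (median 430.4) in D. simulans larvae, without overlap (0.72 ± 0.07 (adjusted p = 1.97e-08)). It was thus higher in D. sechellia at both stages. alpha-PheRS, a subunit of the phenylalanine enzyme (0.69 ± 0.11 (adjusted p = 2.12e-05)), and eIF2B-alpha, a regulatory subunit of eIF2B (0.55 ± 0.10 (adjusted p = 0.000123)), were also higher.

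The lower members in D. sechellia larvae were led by eIF4E-6 (-0.88 ± 0.17 (adjusted p = 0.000208)), eIF5B (-0.81 ± 0.10 (adjusted p = 1.61e-06)), eIF4E-4 (-0.75 ± 0.27 (adjusted p = 0.0213)), CysRS (-0.71 ± 0.07 (adjusted p = 4.96e-08)) and AspRS-m (-0.41 ± 0.11 (adjusted p = 0.00219)). CysRS ran from 8.77 to 12.5 FPKM (median 10.3) in D. sechellia larvae, against 15.98 to 20.6 FPKM (median 17.8) in D. simulans larvae, with no overlap, as in adults. eIF5B, the GTPase that joins the ribosomal subunits, ran from 10.8 to 17.3 FPKM (median 14.6) in D. sechellia larvae, against 17.02 to 30.9 FPKM (median 25.3) in D. simulans larvae. Of these 5, AspRS-m turned to 0.18 on FPKM as deposited, and the calls on the other 4 were lost there, at -0.29 for eIF4E-6, -0.21 for eIF5B, -0.14 for eIF4E-4 and -0.12 for CysRS. Testis markers summed to a median of 143 FPKM in D. sechellia larvae and 162 FPKM in D. simulans larvae, and their part in the eIF4E-4 difference was not tested.

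**Figure D3:**
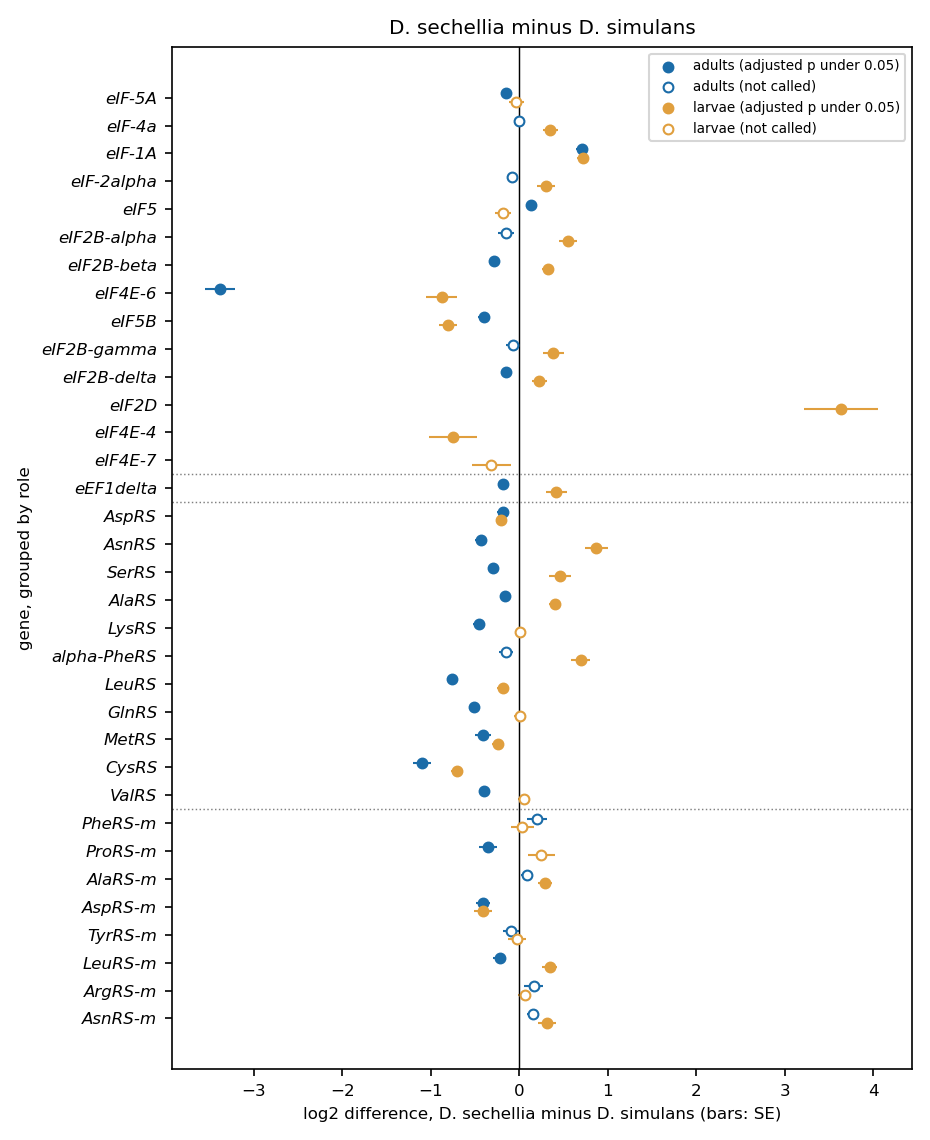
Log2 difference of D. sechellia minus D. simulans for each gene in adults (blue) and larvae (orange), with bars of 1 SE and filled points at adjusted p under 0.05; eIF2D in adults, at 0 in D. simulans, and eIF4E-4 and eIF4E-7 in adults are not drawn. On rescaled FPKM the adult points of the cytosolic synthetases lie left of 0, and eIF4E-6 lies farthest left. On FPKM as deposited 7 of these 11 synthetases were called higher, where over all genes 4844 were higher and 375 lower.

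Against each parental species most members tested were called in hybrids, in both directions, as were most of all genes tested. Against D. simulans, 13 of 32 members were higher and 12 lower in adult hybrids, where 71.7% of 6352 genes were called (35.4% higher and 36.4% lower), and 12 of 34 were higher and 16 lower in larval hybrids, where 64.8% of 7192 were called (29.1% higher and 35.7% lower). Against D. sechellia, 16 were higher and 14 lower in adult hybrids, where 71.4% of all genes were called (28.4% higher and 42.9% lower). In larval hybrids 13 were higher and 14 lower, where 62.7% were called (27.0% higher and 35.7% lower). Both comparisons of a stage share the hybrid libraries. In each of the 4 comparisons 5 of 8 mitochondrial synthetases were higher and 2 lower. On FPKM as deposited those counts were 6 and 1 against D. simulans adults, 5 and 1 against D. sechellia adults, 5 and 2 against D. simulans larvae and 4 and 2 against D. sechellia larvae. Cytosolic synthetases stood at 3 higher and 6 lower of 11 against D. simulans adults (7 and 4 as deposited), 5 and 6 against D. sechellia adults (6 and 4), 2 and 7 against D. simulans larvae (2 and 5) and 4 and 6 against D. sechellia larvae (3 and 6). Over all members the deposited values gave 21 higher and 7 lower against D. simulans adults, 17 and 11 against D. sechellia adults, 11 and 12 against D. simulans larvae and 10 and 16 against D. sechellia larvae. Over all genes they gave 3769 higher and 1038 lower against D. simulans adults, and 2364 and 2075 against D. sechellia adults. The larval counts as deposited are given without the share over all genes at that scale, so they show nothing particular to the members.

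LysRS, the lysine enzyme, was far lower in hybrids than in both parents. In adults it ran from 2.46 to 18.9 FPKM (median 7.57) in hybrids, 55.4 to 85.3 FPKM (median 75.8) in D. sechellia and 88.6 to 113 FPKM (median 102) in D. simulans. In larvae it ran from 1.42 to 16.5 FPKM (median 4.31) in hybrids, 52.4 to 75.1 FPKM (median 62.97) in D. sechellia and 51.6 to 74.96 FPKM (median 61.5) in D. simulans. No hybrid library reached the lowest parental library. The difference from D. simulans was -3.57 ± 0.14 (adjusted p = 5.3e-19) in adults and -3.48 ± 0.17 (adjusted p = 7.05e-16) in larvae, and that from D. sechellia -3.12 ± 0.16 (adjusted p = 7.52e-16) and -3.49 ± 0.17 (adjusted p = 3.76e-16).

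eIF2B-gamma, of the catalytic part of the eIF2 exchange factor, was also low in hybrids. It ran from 0 to 4.69 FPKM (median 2.45) in adult hybrids, 15.6 to 25.4 FPKM (median 21.6) in D. sechellia adults and 18.8 to 24.8 FPKM (median 22.2) in D. simulans adults. In larval hybrids it was at 0 in 7 of 12 libraries and reached 5.64 FPKM, against 19.4 to 42.7 FPKM (median 26.1) in D. sechellia larvae and 16.5 to 30.6 FPKM (median 18.9) in D. simulans larvae. Its difference from D. simulans was -2.97 ± 0.11 (adjusted p = 1.96e-19) in adults and -3.71 ± 0.23 (adjusted p = 5.14e-14) in larvae. The regulatory subunits eIF2B-alpha and eIF2B-beta of the same complex were higher in hybrids, by 0.83 ± 0.10 (adjusted p = 2.57e-08) and 0.54 ± 0.08 (adjusted p = 1.83e-06) against D. simulans adults and by 1.51 ± 0.16 (adjusted p = 7.13e-09) and 0.98 ± 0.11 (adjusted p = 8.78e-09) against D. simulans larvae. eIF2B-delta, also regulatory, was lower, at -1.57 ± 0.13 (adjusted p = 7.85e-12) in adults and -1.71 ± 0.15 (adjusted p = 8.02e-11) in larvae.

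Also lower in hybrids than in D. simulans were TyrRS-m (-2.63 ± 0.14 in adults, -2.48 ± 0.23 in larvae), alpha-PheRS (-2.30 ± 0.12 and -1.94 ± 0.19), AsnRS (-2.25 ± 0.10 and -1.97 ± 0.18), eIF-4a (-1.89 ± 0.07 and -1.62 ± 0.12) and GlnRS (-1.69 ± 0.09 and -1.69 ± 0.11), each called at both stages. AsnRS ran from 32.2 to 51.9 FPKM (median 41.9) in adult hybrids, 126 to 192 FPKM (median 149) in D. sechellia adults and 178 to 237 FPKM (median 206) in D. simulans adults. The helicase gene eIF-4a ran from 297 to 384 FPKM (median 343) in adult hybrids, 1044 to 1436 FPKM (median 1274) in D. sechellia adults and 1169 to 1369 FPKM (median 1283) in D. simulans adults. The hybrids lay below both parents in both genes, with no overlap.

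The members higher in hybrids included 4 mitochondrial enzymes and AspRS. PheRS-m ran from 59.5 to 113 FPKM (median 83.9) in adult hybrids, 30.9 to 71.6 FPKM (median 44.4) in D. sechellia adults and 32.7 to 47.4 FPKM (median 40.6) in D. simulans adults, a difference of 1.01 ± 0.13 (adjusted p = 4.97e-08) from D. simulans. In larvae PheRS-m ran from 42.3 to 154 FPKM (median 97.4) in hybrids, 24.7 to 46.7 FPKM (median 35.4) in D. sechellia and 23.2 to 52.2 FPKM (median 31.6) in D. simulans. Its hybrid range overlapped that of D. sechellia adults and that of both larval parents. ArgRS-m differed from D. simulans by 1.64 ± 0.16 (adjusted p = 4.57e-10) in adults and 1.04 ± 0.17 (adjusted p = 3.46e-06) in larvae, ProRS-m by 1.08 ± 0.18 (adjusted p = 4.1e-06) and 1.54 ± 0.25 (adjusted p = 4.66e-06), and AlaRS-m by 0.84 ± 0.09 (adjusted p = 3.81e-09) and 1.16 ± 0.13 (adjusted p = 2.16e-08). AspRS ran from 181 to 237 FPKM (median 215) in adult hybrids, 90.5 to 112 FPKM (median 101) in D. sechellia adults and 96.2 to 140.3 FPKM (median 113) in D. simulans adults, with no overlap (0.87 ± 0.10 (adjusted p = 9.32e-09) against D. simulans). When the deposited allele columns were summed before rescaling, PheRS-m was no longer called against D. simulans adults (0.28, adjusted p = 0.148).

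Where the species differ strongly, hybrids took different places. eIF4E-6 ran from 20.4 to 79.4 FPKM (median 37.5) in adult hybrids, far above D. sechellia adults (3.21 ± 0.22 (adjusted p = 3.72e-13)) and not called against D. simulans adults (-0.17 ± 0.19, adjusted p = 0.438). eIF2D ran from 0 to 3.89 FPKM (median 2.18) in adult hybrids, lower than in D. sechellia adults (-3.14 ± 0.16 (adjusted p = 3.37e-16)), while D. simulans adults were listed at 0. Ovary and egg markers summed to 8127 to 12744 FPKM in adult hybrids, where 2 of the 6 were higher and 2 lower than in D. simulans adults and 4 higher and 2 lower than in D. sechellia adults, and testis markers to 7.23 to 203 FPKM in larval hybrids. How hybrid reads were assigned to alleles is not given in the sources used here, and the part of this and of the markers in the differences between hybrids and parents was not tested.

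**Figure D4:**
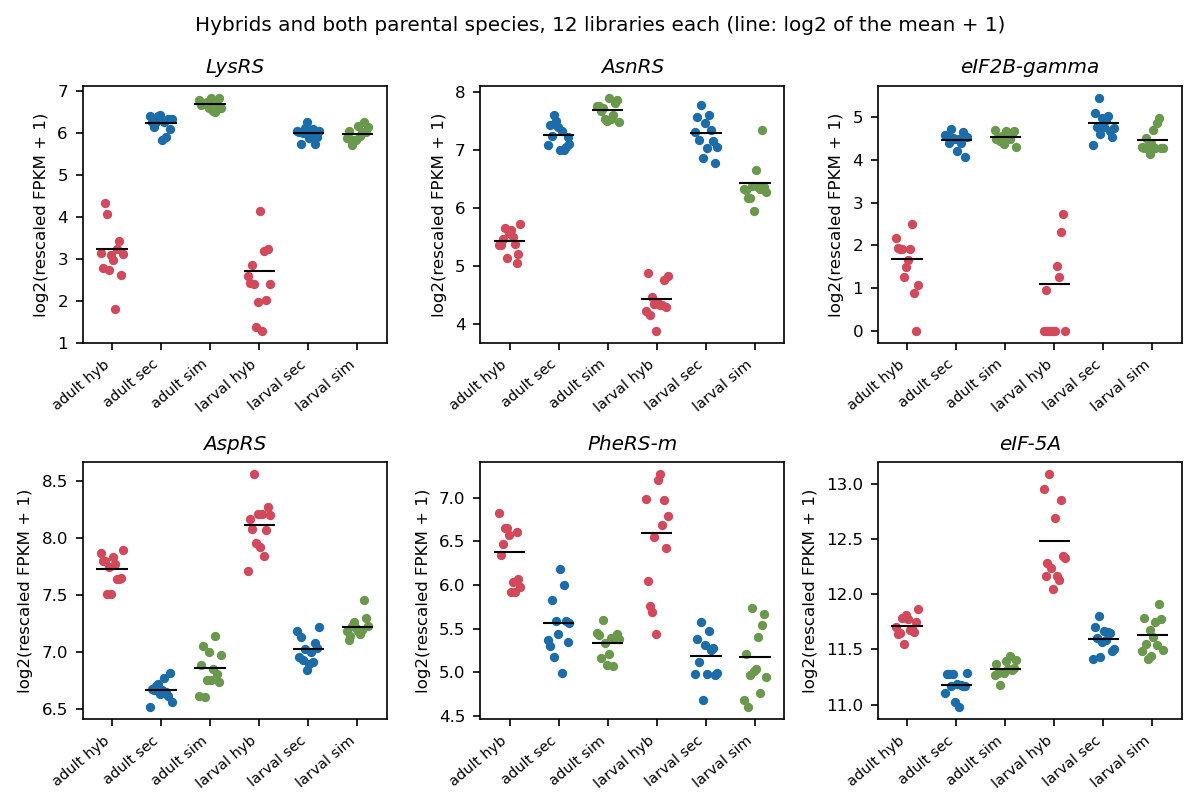
Log2(rescaled FPKM + 1) of 6 genes in each library of hybrids (hyb, red), D. sechellia (sec, blue) and D. simulans (sim, green), adults left and larvae right, with 12 points a group and a line at log2 of the mean + 1. Hybrids lie below both parents for LysRS, AsnRS and eIF2B-gamma and above them for AspRS and eIF-5A, with overlap for PheRS-m.

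Within hybrid libraries the D. sechellia allele was set against the D. simulans allele of the same library. The deposited allele columns differ greatly in scale, since the D. sechellia allele held 79.9% to 88.7% of summed FPKM in adult and 64.4% to 74.2% in larval hybrids, so each column was rescaled. Of 32 members in adults, 6 were higher and 14 lower from the D. sechellia allele, where 52.2% of 5953 genes were called (19.2% higher and 33.0% lower). Of 34 in larvae, 5 were higher and 11 lower, where 51.6% of 6844 genes were called (17.7% higher and 33.9% lower). Without rescaling the splits were 28 and 2 in adults and 13 and 7 in larvae. With each column scaled to a total of 1000000 they were 9 and 8 in adults and 2 and 14 in larvae. The all-gene median of the adult allelic difference was -0.16 on rescaled and 1.89 on deposited columns, and that of larvae -0.24 and 0.36. With columns scaled to 1000000 the larval median was -0.47. The splits thus moved with the column scale, as the typical gene did, and these shifts are not particular to the members.

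eIF4E-6 was detected mainly from the D. simulans allele. In adult hybrids its D. sechellia allele ran from 0 to 6.39 FPKM (median 0), at 0 in 9 of 12 libraries, against 23.4 to 90.2 FPKM (median 38.9) for its D. simulans allele (-4.75 ± 0.36 (adjusted p = 3.39e-08)). In larval hybrids the D. sechellia allele ran from 0 to 7.84 FPKM (median 0), at 0 in 11 of 12, against 21.98 to 47.99 FPKM (median 32.9) for the D. simulans allele (-4.82 ± 0.25 (adjusted p = 4e-10)). No D. sechellia allele value reached the lowest D. simulans allele value at either stage. eIF5 was similar, with 5.26 to 21.99 FPKM (median 9.86) from the D. sechellia allele, against 80.2 to 104 FPKM (median 92.96) from the D. simulans allele in adults (-3.08 ± 0.16 (adjusted p = 3.64e-10)). In larvae it had 0 to 10.1 FPKM (median 4.25) from the D. sechellia allele, against 66.2 to 93.1 FPKM (median 79.1) from the D. simulans allele (-4.11 ± 0.29 (adjusted p = 1.58e-08)). Its alleles did not overlap, while the species themselves differed by 0.13 ± 0.05 in adults and -0.18 ± 0.09 in larvae.

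PheRS-m was also higher from the D. simulans allele in adults, with 2.67 to 31.5 FPKM (median 17.2) from the D. sechellia allele, against 53.2 to 103 FPKM (median 75.9) from the D. simulans allele (-2.22 ± 0.21 (adjusted p = 3.57e-07)). It turned to 0.31 with the columns as deposited. LysRS (-1.41 ± 0.17 (adjusted p = 7.07e-06)) and eIF5B (-1.37 ± 0.16 (adjusted p = 5.21e-06)) were lower from the D. sechellia allele in adults, and turned to 0.55 and 1.06 on FPKM as deposited. In adult hybrids eIF2D had 0 to 4.32 FPKM (median 2.44) from its D. sechellia allele, and its D. simulans allele was listed at 0 in all 12 libraries. The D. sechellia allele was higher for alpha-PheRS (0.87 ± 0.27 (adjusted p = 0.013)) and eIF-5A (0.75 ± 0.05 (adjusted p = 3.25e-09)).

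In larvae eIF4E-7 (-2.97 ± 0.39 (adjusted p = 1.28e-05)), LysRS (-2.06 ± 0.31 (adjusted p = 5.35e-05)), eIF2B-beta (-2.01 ± 0.26 (adjusted p = 1.3e-05)) and eIF-2alpha (-1.82 ± 0.23 (adjusted p = 1.07e-05)) were lower from the D. sechellia allele. The alpha subunit of eIF2 ran from 26.2 to 95.1 FPKM (median 34.04) for the D. sechellia allele, against 112 to 197 FPKM (median 165) for the D. simulans allele, without overlap. In adults the same gene ran from 93.5 to 154 FPKM (median 122) for the D. sechellia allele, against 76.7 to 176 FPKM (median 121) for the D. simulans allele, and was not called (0.03 ± 0.10, adjusted p = 0.823). The difference between the stages in this allelic ratio was not tested. Higher from the D. sechellia allele were eIF-5A (1.36 ± 0.13 (adjusted p = 3.06e-07)), eIF2B-alpha (0.85 ± 0.19 (adjusted p = 0.00134)), AlaRS-m (0.52 ± 0.20 (adjusted p = 0.0415)), eEF1delta (0.49 ± 0.11 (adjusted p = 0.00132)) and AlaRS (0.38 ± 0.12 (adjusted p = 0.0167)). Of these, AlaRS-m, eEF1delta and AlaRS lost their calls with columns scaled to 1000000 (0.30, 0.24 and 0.13), and AlaRS-m lost it without any 1 of 9 libraries.

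The difference between species was then set against the difference between alleles, with both kinds of column fitted together. A positive value means that D. sechellia stands higher relative to D. simulans as a species than its allele does within hybrids. In adults 8 of 32 members were positive and 7 negative, where 53.4% of 6363 genes were called (38.5% positive and 14.9% negative), and in larvae 14 of 34 were positive and 1 negative, where 42.0% of 7192 were called (30.5% positive and 11.4% negative). With deposited values the adult split was 3 positive and 25 negative, and the larval one 13 and 4. The all-gene median was 0.37 in adults and 0.25 in larvae on rescaled values, and -0.82 in adults on deposited values. The adult split thus moved with the scale of the columns, as the typical gene did. The species and allelic comparisons share the parental or allele columns used here.

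eIF5 was positive at both stages, at 3.21 ± 0.15 (adjusted p = 5.82e-18) in adults and 3.92 ± 0.27 (adjusted p = 1.01e-13) in larvae. eIF4E-6 stood at 1.37 ± 0.40 (adjusted p = 0.0051) in adults, where the call is lost on FPKM as deposited (0.73, adjusted p = 0.202), and 3.94 ± 0.35 (adjusted p = 4.24e-11) in larvae. PheRS-m stood at 2.42 ± 0.26 (adjusted p = 1.77e-09) and 1.48 ± 0.38 (adjusted p = 0.00208). In these 3 genes the D. sechellia allele, relative to the D. simulans allele, was lower than D. sechellia relative to D. simulans. LysRS was at 0.95 ± 0.16 (adjusted p = 6.24e-06) and 2.07 ± 0.25 (adjusted p = 3.48e-08), and eIF2B-beta at 0.41 ± 0.16 (adjusted p = 0.0287) and 2.33 ± 0.23 (adjusted p = 8.08e-10). The adult value of eIF2B-beta lay near the all-gene median of 0.37. eIF-5A was negative at both stages, at -0.90 ± 0.10 (adjusted p = 1.17e-08) and -1.39 ± 0.18 (adjusted p = 1.36e-07). alpha-PheRS was negative in adults, at -1.02 ± 0.24 (adjusted p = 0.000643), and positive in larvae, at 1.56 ± 0.42 (adjusted p = 0.00278). eIF-1A was at 1.06 ± 0.15 (adjusted p = 5.18e-07) in adults and turned to -0.81 there on FPKM as deposited, near the all-gene median of -0.82.

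**Figure D5:**
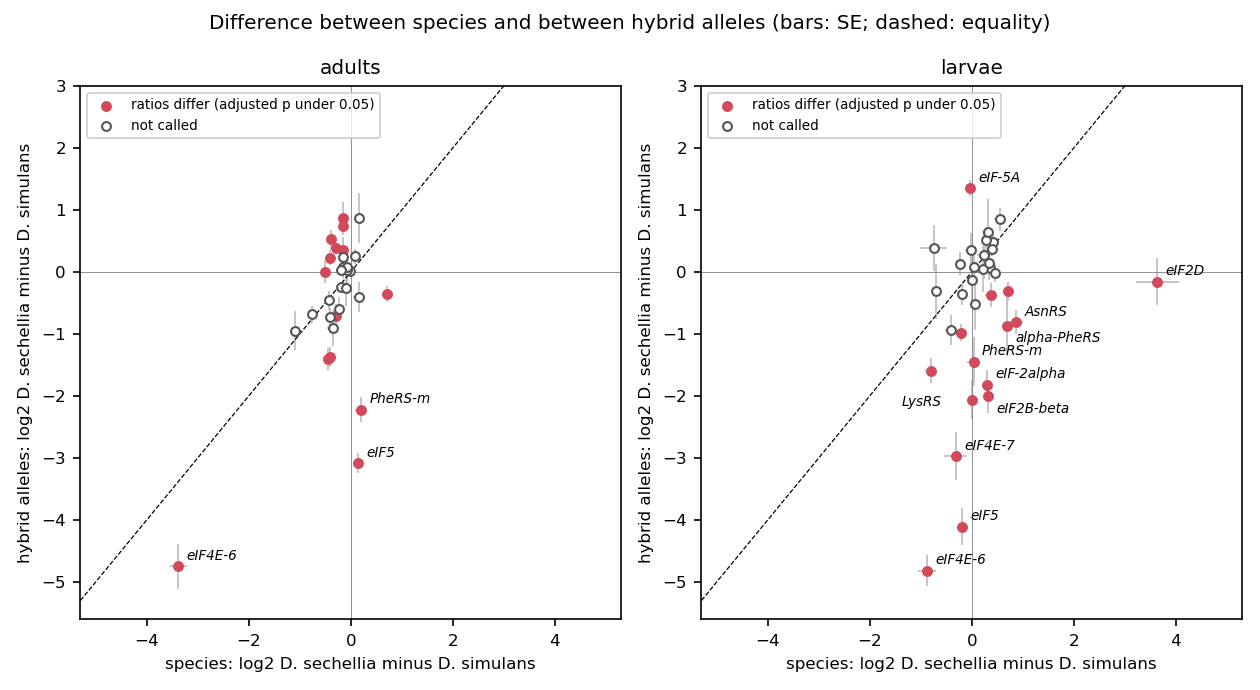
Species difference (horizontal axis, log2 D. sechellia minus D. simulans) against allelic difference within hybrids (vertical axis, same units) for each gene, adults left and larvae right, with bars of 1 SE and filled points where the difference between them was called; eIF2D in adults is not drawn. Values are on rescaled columns: eIF5 and eIF4E-6 lie far below the dashed line of equality, and eIF-5A lies above it.

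The study also asked whether octanoic acid in the current or previous generation changed expression. For each genotype and stage the effects of the current medium, of the previous medium and of their combination were tested over 12 libraries, 18 comparisons in all. None of the 31 to 34 members tested was called in any of them by limma, where 0% to 0.0586% of all genes were called, and 0 to 7 members had an unadjusted p under 0.05. The 7 of 34 were in D. simulans larvae for the previous medium, where 1624 of 6642 genes had an unadjusted p under 0.05, against 41 to 706 genes in the other comparisons. In simulated data 2-fold changes by current medium were called in 20% of cases in hybrid larvae, 57% in D. simulans larvae and 61% in hybrid adults. The shares were 69% and 74% in D. sechellia adults and larvae and 97% in D. simulans adults. In these simulated data 200 genes were changed at once. With fewer changed genes the Benjamini-Hochberg cutoff is stricter, so a lone 2-fold change would be called less often than these shares. The largest adult difference by current medium was eIF2B-gamma in hybrids, at -0.91 ± 0.29 (adjusted p = 0.317). It had 0.842, 0 and 1.12 FPKM in OO hybrids and 2.78, 1.39 and 1.80 FPKM in SO hybrids, against 2.15, 2.75 and 4.69 FPKM in OS hybrids and 3.53, 2.86 and 2.76 FPKM in SS hybrids. In 5 of the 6 libraries from octanoic acid the level was below that of all 6 from standard medium. In a fit of all 36 adult libraries, with 1 variance for all genotypes, this gene and eIF2B-alpha (0.52, adjusted p = 0.0383) were called, as were genes outside the set. eIF2B-gamma had adjusted p = 0.00311 and an SE of 0.16 there, with the less variable parental libraries included. Hybrid adults had a variance weight of 0.415, against 0.738 in D. sechellia and 3.26 in D. simulans, where a lower weight means more spread. These 2 p-values thus do not measure the spread of hybrids alone.

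Abundant members show the spread within and between media. eIF-5A had 2316, 2515 and 2501 FPKM in SO and 2464, 2638 and 2489.6 FPKM in SS adults of D. simulans. LysRS had 79.7, 66.5 and 79.8 FPKM in OO and 55.4, 75.7 and 58.3 FPKM in OS adults of D. sechellia. The replicates of these groups overlapped in each gene. eIF2D in D. simulans larvae, chosen after its values were seen, had 0 in all 6 libraries with octanoic acid in the previous generation (OO and OS), against 13.2, 0 and 10.8 FPKM in SO and 0, 0 and 13.4 FPKM in SS libraries (-1.87 ± 0.79 for the previous medium, adjusted p = 0.184). In the same comparison 1 member, eIF2B-alpha, was called by limma without OO replicate 2 (0.48, unadjusted p = 0.00511, adjusted p = 0.0424). An adjusted p this near the unadjusted one means that many other genes were called in that fit too. With all 12 libraries 1 of 6642 genes was called, so the number of calls depended on this library.

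A list of 44 other translation-linked genes, of which the table holds 17, gives the setting of the members. In adults against larvae of the parental species 13 were higher and 3 lower (14 and 2 on FPKM as deposited), where 86.1% of all genes were called (36.9% higher and 49.2% lower). In hybrids 11 were higher and 3 lower (16 and 0), where 70.6% of all genes were called (30.5% higher and 40.1% lower). me31B, a helicase that represses stored mRNA, rose by 2.41 ± 0.09 (adjusted p = 1.26e-23) and cup, its partner in the germline, by 2.54 ± 0.15 (adjusted p = 5.96e-18). Thor, the eIF4E-binding inhibitor of initiation, differed by -1.41 ± 0.09 (adjusted p = 2.82e-17). Thor ran from 446 to 678 FPKM (median 547) in D. sechellia adults and 523 to 678 FPKM (median 605) in D. simulans adults, against 1257 to 2353 FPKM (median 1819) in D. sechellia larvae and 966 to 1864 FPKM (median 1325) in D. simulans larvae, without overlap within a species. Between the species 0 were higher and 12 lower in D. sechellia adults, where 73.0% of all genes were called (42.1% higher and 30.9% lower). On FPKM as deposited 12 were higher and 0 lower, and over all genes 4844 were higher and 375 lower. In D. sechellia larvae 4 were higher and 8 lower, where 66.3% of all genes were called (35.3% higher and 31.0% lower). This split turned to 9 higher and 0 lower on FPKM as deposited, where the all-gene median stood at 0.58.

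In hybrids this list stood at 3 higher and 12 lower against D. simulans adults (8 and 5 as deposited) and 4 and 9 against D. sechellia adults (8 and 8). On rescaled FPKM 71.7% (35.4% higher and 36.4% lower) and 71.4% (28.4% and 42.9%) of all genes were called there. As deposited, 3769 genes were higher and 1038 lower against D. simulans adults, and 2364 and 2075 against D. sechellia adults. The list stood at 1 and 15 against D. simulans larvae (2 and 10) and 2 and 10 against D. sechellia larvae (1 and 11). On rescaled FPKM 64.8% (29.1% higher and 35.7% lower) and 62.7% (27.0% and 35.7%) of all genes were called there. The larval counts as deposited are again given without the share over all genes at that scale. Thor differed by -3.28 ± 0.12 (adjusted p = 2.07e-19) from D. simulans adults and by -2.68 ± 0.21 (adjusted p = 1.55e-11) from D. simulans larvae. 4E-T, which carries eIF4E into repressed granules, ran from 2.01 to 6.83 FPKM (median 5.52) in adult hybrids, 37.4 to 50.7 FPKM (median 45.1) in D. sechellia adults and 44.4 to 56.1 FPKM (median 46.8) in D. simulans adults (-3.05 ± 0.10 (adjusted p = 1.25e-20) against D. simulans). pAbp, the poly(A)-binding protein, had 793 to 1083 FPKM (median 908) from the D. sechellia allele and 84.3 to 129 FPKM (median 97.8) from the D. simulans allele in adult hybrids (3.18 ± 0.07 (adjusted p = 1.16e-14)). AIMP1, a scaffold of the multi-synthetase complex, was higher in adult hybrids than in D. sechellia adults, at 2.07 ± 0.12 (adjusted p = 1.68e-14). No gene of the list was called in any media comparison.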

How the data were processed

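Poly(A) RNA of 72 libraries was measured by RNA sequencing. The authors deposited FPKM in 1 table of 7836 genes and 96 columns, where each of 48 parental libraries has 1 column and each of 24 hybrid libraries has 1 per allele. FastQC, Bowtie2 and Cufflinks were used, per the submitters' processing notes. Their versions, the builds and the way reads were given to an allele are not stated in those notes. FPKM keep no read depth, so depth per library is unknown and no counting interval is given.

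Libraries were rescaled by median ratios over 3819 genes above 0 in all 72, and allele columns over 1979 genes. A hybrid library is the sum of its 2 rescaled allele columns, a choice made after seeing the column scales. Genes below 1 FPKM in all but 2 of the fitted libraries were left out, so that 3 or more had to reach it. Tests used limma 3.58.1 in R 4.3.3 on log2(FPKM + 1), with a mean-variance trend and Benjamini-Hochberg adjustment over all genes tested. Hybrids against parents, and parental against allelic ratios, carried variance weights per class, and allelic ratios a library block. Each media effect was fitted within its genotype and stage. The scripts were tested on simulated data. Alternatives were FPKM as deposited, no filter, a pseudocount of 0.1, the replicate number as a block, equal variances, all 36 libraries of a stage, allele columns scaled to 1000000, no library block, each library left out and, added later, hybrids as the sum of deposited allele columns. Plots used matplotlib 3.10.9, and other tables numpy 2.4.6 and pandas 2.3.3 under Python 3.11.15.

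The members and the lists were chosen with earlier results of these data known. Named in full are, per comparison, up to 5 called members in each direction with the largest difference, the 2 most abundant members of each role, members at 0 in a species or an allele, and up to 4 called genes of the translation-linked list; other members are given by value. None of the 34 symbols matched the reference table, so no coordinates or sequences are given.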

Additional observations from a re-analysis of the deposited data

Results flagged for a closer look

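The change between adults and larvae differed between the parental species for 23 of 34 members by the test of that difference itself (limma, adjusted over all genes). Over all 7338 genes tested 56.7% were called, so such a difference is not particular to these genes. The 7 given here have the largest called differences in each direction, without members at 0 in a whole parental group. The test says that the changes were unequal, not that they ran in opposite directions. Values are the stage difference (adults minus larvae) of D. sechellia minus that of D. simulans. AsnRS had -1.30 ± 0.14 (adjusted p = 2.35e-09), with adult and larval medians of 149 and 150.5 FPKM in D. sechellia and 206 and 79.3 FPKM in D. simulans. eIF4E-6 had -2.50 ± 0.25 (adjusted p = 1.89e-10). alpha-PheRS had -0.85 ± 0.14 (adjusted p = 3.21e-06), SerRS -0.75 ± 0.13 (adjusted p = 1.7e-05) and eIF2B-alpha -0.69 ± 0.13 (adjusted p = 5.4e-05). eIF5 had 0.32 ± 0.10 (adjusted p = 0.0078) and eIF5B 0.41 ± 0.12 (adjusted p = 0.00436).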

How the results depend on the processing

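Of 123 results for single genes, 105 kept direction and call on FPKM as deposited, 8 lost the call and 10 turned round. Those that turned round were, for adults minus larvae in hybrids, eIF-4a (0.39), eIF-5A (0.58) and AspRS (0.90). For D. sechellia minus D. simulans they were GlnRS (0.21) and LysRS (0.27) in adults and AspRS-m (0.18) in larvae. For the adult alleles they were PheRS-m (0.31), LysRS (0.55) and eIF5B (1.06), and for parental against allelic ratios in adults eIF-1A (-0.81). The counts of called members on FPKM as deposited were 32 for the stage in hybrids and 28 for parental against allelic ratios in adults. With all 36 libraries of the stage and 1 variance for all genotypes, 2 members were called for the current medium in hybrid adults, where 207 genes were called in all. That variance is not the spread of the hybrids alone. Leaving out single libraries gave 0 to 1 called members for the previous medium in D. simulans larvae, 20 to 24 for the species in adults and 14 to 16 for parental against allelic ratios in adults. The 1 member called without OO replicate 2 of D. simulans larvae was eIF2B-alpha, in a fit that called many other genes too. Over single genes 3826 leave-one-out results kept the call and 14 lost it: 9 for AlaRS-m in the larval allelic ratio, 3 for eIF5 between adult species and 2 for eIF2D in stage by species (adjusted p = 0.0597 and 0.0581). With a pseudocount of 0.1 AlaRS-m was also lost (adjusted p = 0.0506). The replicate numbers were not taken to pair the libraries, since correlations of the deviations of libraries with the same number ran from -0.747 to 0.741 and below 0 for some pairs of every genotype and stage. Their median was nevertheless above that of libraries with other numbers in D. simulans larvae (0.354 against -0.140) and in hybrid larvae (0.102 against -0.055), and the labels do not say what a number shares. With the replicate number as a block 25 members were called for stage, 23 for stage by species, 23 for stage in hybrids, 21 for species in adults and 25 for species in larvae, and all counts stayed within 1.5 times. The unknown depth limits what a value of 0 shows.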
